A study of Mus musculus with 6 samples.

Results

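The potassium channel genes described here are the protein-coding mouse genes whose symbol begins with Kcn, without the Kcnip genes, which encode calcium-binding partners of the channels. Of 90 such genes in the deposited table, 87 had a base mean above 0 and form the set, among 16220 protein-coding genes with a base mean above 0. The base mean is the authors' mean over all libraries of read counts divided by the size factor of each library, so it is a level in normalized reads with no spread attached. Where a gene had several RefSeq entries, which was so for 11 of the 87 genes, the entry with the highest base mean was kept. By the known role of their proteins, 75 members carry the pore domain and 12 are auxiliary subunits or regulators. The remaining 3 genes, Kcna10, Kcnk9 and Kcnmb3, are listed at a base mean of 0.

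Nuclear RNA was sequenced from 6 libraries of mouse embryonic stem (ES) cells of the genotype Rybp fl/fl;Yaf2-/-. In every library Yaf2 had been removed beforehand by a Cas9 deletion in clonally isolated cells, and both copies of Rybp, which encodes a subunit of Polycomb repressive complex 1, carry loxP sites that a tamoxifen-activated Cre recombinase can recombine. The group UNT holds 3 untreated biological replicates and the group OHT holds 3 replicates given 800 nM 4-hydroxytamoxifen for 96 hr, so that the agent and the loss of Rybp come together and neither group has intact Yaf2. The base mean pools both groups, and the effect of OHT on the channel genes was not analysed here.

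Potassium channels let K+ ions leave the cell along their gradient, which holds the membrane potential negative at rest and ends action potentials in nerve and muscle. A channel is built from pore-forming subunits around a central pathway, and auxiliary subunits change how it opens or how much of it reaches the surface. Voltage-gated (Kcna to Kcnd, Kcnh, Kcnq), calcium- or sodium-activated (Kcnm, Kcnn, Kcnt), inward rectifier (Kcnj) and 2-pore domain (Kcnk) channels share the same selectivity filter, and many of them are best known from excitable tissue.

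The filter is the feature that unites the pore-forming members, so its codons are shown for leading members of several subfamilies (for Kcnn, the member second in base mean). Capitals mark the 15 bases that encode the filter motif, and lower case marks 15 bases of coding sequence on each side, written 5′ to 3′ on the coding strand from GENCODE vM21 transcripts (mm10). Kcnk5 has 2 filters because each of its subunits contributes 2 pore loops.
Kcnk5 filter 1: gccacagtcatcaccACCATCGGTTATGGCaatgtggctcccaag
Kcnk5 filter 2: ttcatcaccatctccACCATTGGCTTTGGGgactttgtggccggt
Kcnt2: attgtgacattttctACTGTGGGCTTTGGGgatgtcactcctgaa
Kcnma1: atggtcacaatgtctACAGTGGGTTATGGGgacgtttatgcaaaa
Kcnd2: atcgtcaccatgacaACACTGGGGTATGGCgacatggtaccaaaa
Kcnj4: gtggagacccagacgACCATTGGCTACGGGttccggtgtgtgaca
Kcnh8: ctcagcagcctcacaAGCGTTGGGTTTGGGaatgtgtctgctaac
Kcnn1: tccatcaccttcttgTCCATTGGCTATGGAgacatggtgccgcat
The Kcnt2 stretch lies at chr1:140425263-140425307 on the plus strand, that of Kcnma1 at chr14:23528398-23528442 on the minus strand, that of Kcnj4 at chr15:79485352-79485396 on the minus strand, that of Kcnh8 at chr17:52877976-52878020 on the plus strand and that of Kcnn1 at chr8:70850642-70850686 on the minus strand, each within the coding part of 1 exon. In Kcnk5 and Kcnd2 the printed stretch runs across an exon junction.

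A filter motif of threonine, any residue, glycine, tyrosine or phenylalanine, and glycine was searched in the translated coding sequence of every member. It was present in 64 of 87 members. With serine also allowed in the first position the motif was present in 75 members, which were all 75 pore-forming members and 0 of the 12 auxiliary ones. The members that need the serine are mainly the Kcnh and Kcnn genes, as the Kcnh8 and Kcnn1 codons above show: the threonine form was found in 1 of 8 Kcnh and 1 of 4 Kcnn proteins, and the form with either residue in all 8 and all 4. The remaining one was Kcnj14, an inward rectifier. Among the 13 Kcnk proteins, 10 held 2 threonine motifs, and Kcnk1, Kcnk6 and Kcnk7 held 1, the other pore loop of these genes having other letters. The motif is a match of letters in the reference and says nothing about the level of a gene.

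The labelled cell type was checked against marker genes. Of 12 pluripotency markers, 10 were in the table and all 10 lay above the median gene, with base means from 1565 (Utf1) to 14300 (Tdgf1). Fibroblast or feeder markers reached at most 369 (Col1a1, 0 of 7 above the median gene) and trophoblast markers at most 79.9 (Eomes, 0 of 6), and 1 of 6 primitive endoderm markers (Dab2, 461) and 1 of 5 muscle or heart markers (Actn2, 617) lay above it. Of 6 neural markers, 3 lay above the median gene, Map2 with a base mean of 1791, Nes with 768 and Tubb3 with 625, whereas Sox1 was at 55.3; the part of neural cells in the channel levels was not tested. These positions are in base mean, which is not corrected for gene length. Per kb of gene span, Col1a1 (22.0), Thy1 (21.2), Neurod1 (24.5), Nes (82.0) and Tubb3 (59.0) lay above the median gene (17.6). Map2 (6.71), Dab2 (3.27) and Actn2 (8.65) lay below it. The lowest pluripotency marker on this scale, Esrrb, had 66.1. In bulk RNA, fewer cells that express a gene and less RNA per cell cannot be told apart. Yaf2, deleted in both groups, had a base mean of 3.24 over all libraries. Rybp had 13983, and because the groups are pooled this value does not check the OHT label.

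Most potassium channel genes were present in nuclear RNA at low levels, and a small number supplied most of the reads. The median base mean of the 87 members was 57.1 (quartiles 11.6 and 200.7), against 391.8 (quartiles 45.7 and 1409) for all 16220 protein-coding genes, which put the median member at percentile 26.9. Only 10 members, or 11.5% (exact 95% binomial interval 5.65% to 20.1%, which covers counting over genes only), lay above the median gene, where 50% of all genes lie by construction. A base mean of at least 10 was reached by 67 members (77.0%), compared with 84.9% of all genes. Of the members, 33 had a base mean of 10 to 100, 34 of 100 or more and 5 of 1000 or more.

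**Figure D1:**
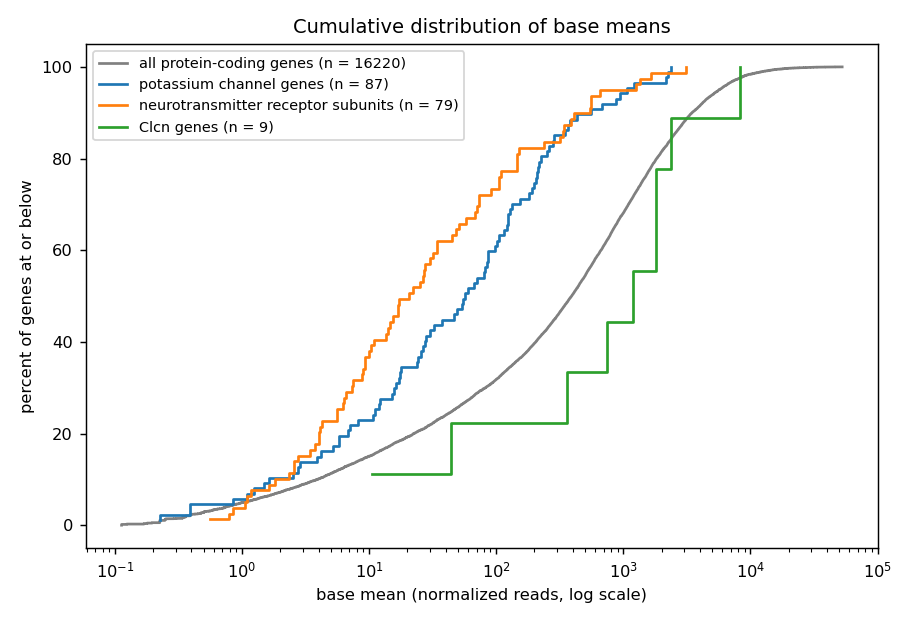
Percent of genes at or below each base mean (normalized reads, log axis) for all 16220 protein-coding genes, the 87 potassium channel genes, 79 neurotransmitter receptor subunits and 9 Clcn genes, all with a base mean above 0. The potassium channel curve reaches 50% at a base mean of 57.1 and that of all genes at 391.8.

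Divided into deciles of all genes by base mean, 49 members (56.3%) fell in deciles 1 to 3, the lowest, 28 in deciles 4 and 5, 4 in deciles 8 to 10 and 0 in decile 10. The 10 members above the median gene held 66.4% of the summed base mean of all members, and the highest 3, Kcnq5, Kcnk5 and Kcnt2, held 35.9%. The matching shares over all genes were not computed, so these are not shown to be particular to the set. Of these 10 members, 8 span at least 100 kb, and base mean is not corrected for length. The set spans a 10550-fold range of base mean, from 0.225 to 2378. The lowest value stands for 2 reads in 1 library, which cannot be separated from 0, so the fold rests on those reads. The base means of all genes ran from 0.113 to 52691.

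The members above the median gene come from 7 of the 15 subfamilies. Kcnq5, a subunit of the neuronal M-current, had a base mean of 2378, and Kcnq3, which co-assembles with other Kcnq subunits, 1059. Kcnk5, an alkali-activated 2-pore domain channel, had 2244, and Kcnk1, of the same subfamily, 684. Kcnt2, a sodium-activated channel, reached 2168. The calcium-activated channels were represented by Kcnma1, the large-conductance channel, at 1207 and by Kcnn2, of small conductance, at 938. Kcnd2, which carries A-type current in dendrites, stood at 884. The ether-a-go-go family gave Kcnh8 at 560.5 and Kcnh1 at 429.5, and the next member, just under the median gene, was Kcnq1 at 382. A base mean of 2378 corresponds to between 9468 and 21100 reads over the 6 libraries and one of 429.5 to between 1711 and 3811, so counting error is small beside these levels, whereas the spread between replicates is unknown.

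**Figure D2:**
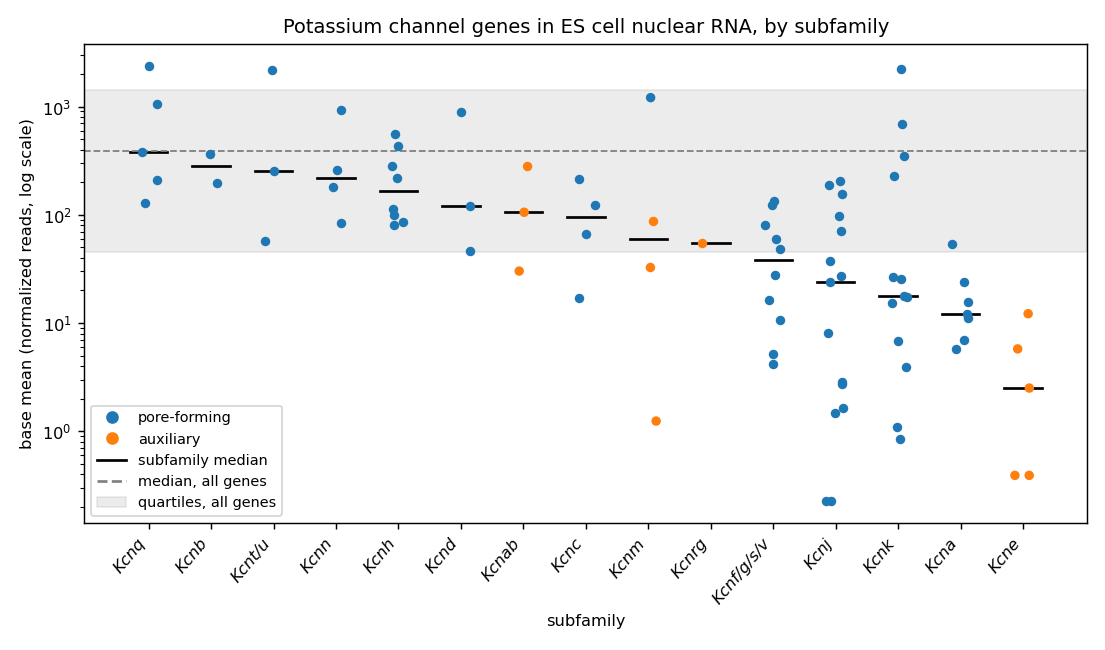
Base mean (normalized reads, log axis) of each of the 87 members by subfamily, ordered by subfamily median (black bars); blue points are pore-forming and orange points auxiliary members. The dashed line is the median of all protein-coding genes (391.8) and the grey band their quartiles (45.7 to 1409); no subfamily median lies above the dashed line.

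Base mean is not corrected for length, and the members differ 450-fold in gene span. In nuclear RNA the reads come from introns as well as exons. Genes were sought that have 2 entries with a base mean above 0, the higher at 10 or more. One entry had to have more than 2 times the span of the other but the smaller transcript length. In the 49 such genes, the wider entry had the higher base mean in 46, the lower in 2 and an equal one in 1. Among the members, the Kcnj12 entry of 48.6 kb had a base mean of 190.0 and the entry of 5.32 kb 60.3. The Kcnj6 entries, under the minimum and so not among the 49, had 8.17 at 249 kb and 2.94 at 34.1 kb. In contrast, the Kcnj16 entries of 59.9 and 4.11 kb both had 1.48, and the Kcnk2 entries of 192 and 134 kb both 226.5. The Kcnab1 entries were both placed at the same span of 269 kb, but had 30.2 and 12.3. The study kept genes with a unique start and end, so these placed spans may not be the ones counted. This pair therefore does not bear on span and level. A wider entry can contain the reads of a narrower one, so these pairs cannot show that reads rise in proportion to span. Levels of different genes were compared per kb of gene span because nuclear RNA holds introns, with transcript length as the alternative. Where entries tied in base mean, the one of wider span was kept, which gives the lower level per kb.

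Across the 87 members, log2 base mean and log2 span had a Pearson correlation of 0.56 and a Spearman correlation of 0.60, compared with 0.35 and 0.37 over all 16220 genes. These are correlations across genes of the same libraries, which are not independent replicates. With transcript length in place of span the values for the members were 0.30 and 0.23. Of the members, 21 (24.1%) span at least 100 kb, against 12.8% of all genes. The median base mean was 218.9 in these 21 and 27.7 in the other 66, but the median level per kb was 1.18 in the long members and 2.54 in the shorter ones. Over all 2084 genes that span at least 100 kb, the median base mean was 987.8 and the median level per kb 5.51. The long members were thus low beside other long genes on both scales. Of the 10 members above the median gene in base mean, 8 span at least 100 kb, and the exceptions are Kcnk5 (41.8 kb) and Kcnk1 (35.5 kb).

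**Figure D3:**
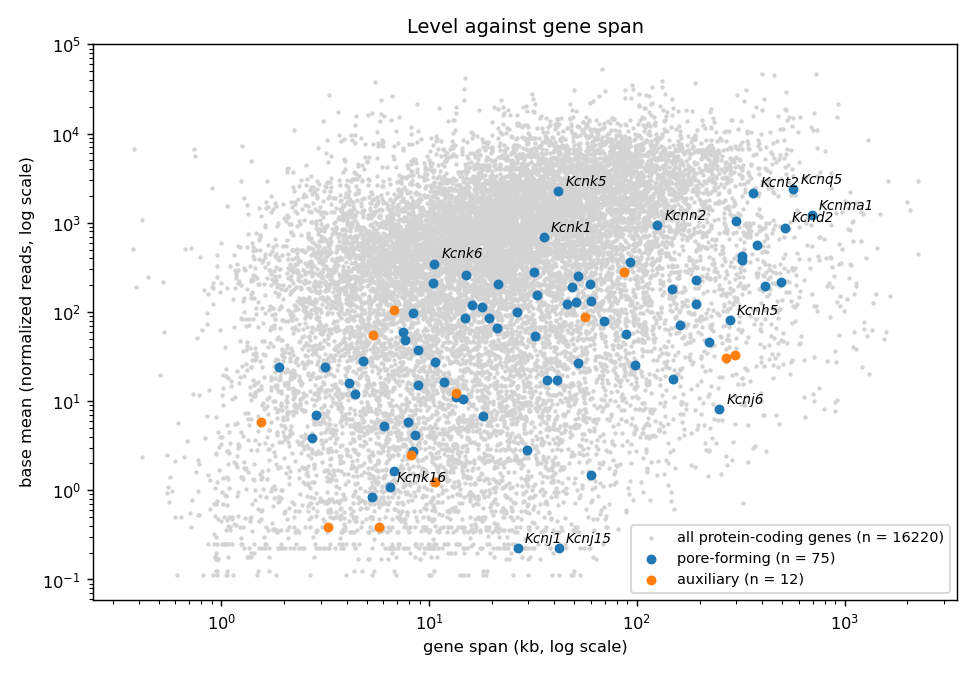
Base mean (normalized reads) against gene span (kb), both on log axes, for the 75 pore-forming (blue) and 12 auxiliary (orange) members over all 16220 protein-coding genes (grey). Kcnq5, Kcnt2, Kcnma1 and Kcnd2 stand at the right with spans over 100 kb, and Kcnk5 stands highest among the members of shorter span.

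Per kb of span the set was again low, with a median of 1.66 against 17.6 for all genes. Only 4 members (4.60%) exceeded the median gene on this scale. Kcnk5 led with 53.7 per kb, at percentile 73.6, which was 1.64 times the second member. This was Kcnk6, a close relative of Kcnk1, with 32.9 per kb. Kcnk1 had 19.3 per kb. Thus 3 of the 4 were 2-pore domain channels, which carry background potassium current. Just under the median gene came Kcnn1 with 17.3 per kb and Kcnab3, a cytoplasmic beta subunit, with 15.6. The Kcnq5 gene, first in base mean, covers 563.5 kb and had 4.22 per kb, at percentile 31.1.

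The rest of the 20 highest members per kb were drawn from most subfamilies. Kcna3 had 12.7 per kb, the inward rectifier Kcnj14 11.8, the regulator Kcnrg 10.3 and Kcnj4 9.48. Kcnh2, the channel of the rapid delayed rectifier current of the heart, had 8.85, Kcns1 7.93, and Kcnj11, the pore of ATP-sensitive channels, 7.63. Kcnd1 had 7.56 per kb, Kcnn2 7.48, Kcng1 6.39 and Kcnh3 6.36. Kcnt2 at 5.96, Kcnf1 at 5.84 and Kcnn4, the intermediate-conductance channel, at 5.68 closed the list. With transcript length as the divisor, 9 of these 20 were again among the highest 20, Kcnk5, Kcnt2, Kcnn2, Kcnk1, Kcnj4, Kcnk6, Kcnh2 and Kcnn1 among them, and Kcnk5 was first on both scales, with 661 per kb of transcript.

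**Figure D4:**
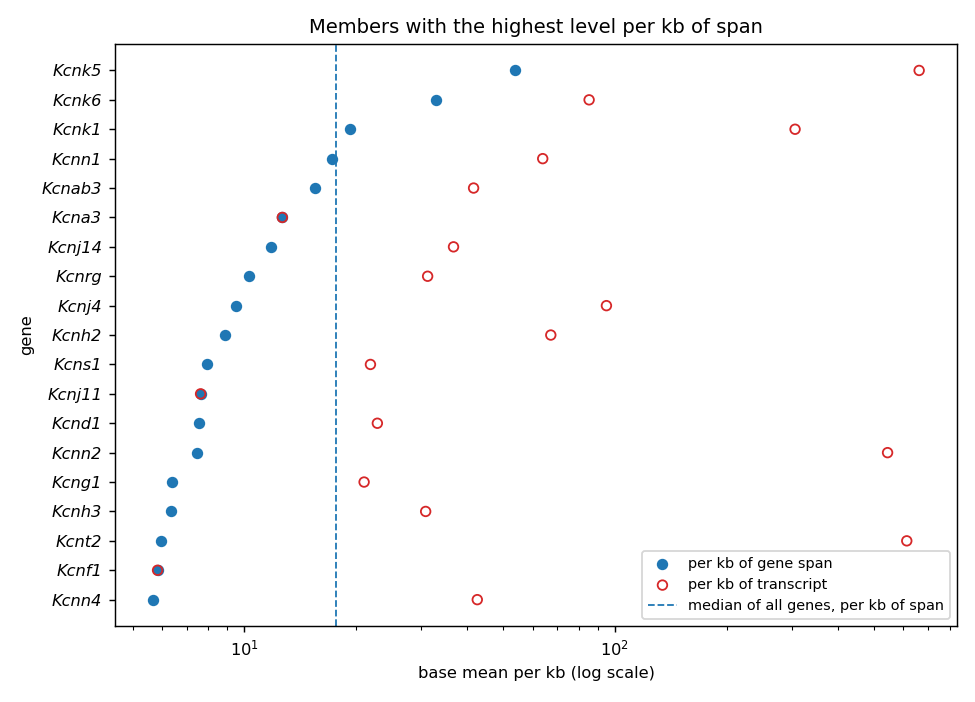
Base mean per kb (log axis) of members among the 20 with the highest level per kb of gene span; filled points are per kb of span, open points per kb of transcript, and the dashed line is the median of all genes per kb of span (17.6). Kcnk5, Kcnk6 and Kcnk1 lie to the right of the line, and the 3 members with coinciding points, Kcna3, Kcnj11 and Kcnf1, have a single exon.

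Base means of the subfamilies are given below as read numbers, with levels per kb where genes are compared. The 5 Kcnq genes had the highest median base mean of any subfamily, 382, and a median of 3.48 per kb. Its highest member was Kcnq5 with 2378, and all 5 had a base mean of at least 10. The 8 Kcnh genes had a median base mean of 167 and a median of 2.65 per kb. Their base means ran from 81.2 (Kcnh5) to 560.5 (Kcnh8), the narrowest relative range of the subfamilies with more than 5 members. The delayed rectifier Kcnb2 had 197, but it covers 411 kb and had 0.479 per kb. The lowest Kcnc gene was Kcnc1 with 17.1, and the Kcnd genes ran from 46.3 (Kcnd3) to 884 (Kcnd2), although per kb Kcnd1 stood above Kcnd2, with 7.56 against 1.72.

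The Kcna genes, which make the Shaker-type channels of axons, had low base means in all 7 members, with a median of 12.0, a highest value of 53.7 (Kcna6) and a lowest of 5.77 (Kcna4). They are compact, with a median span of 4.40 kb, and their median per kb was 2.45, above the 1.66 of the whole set. The 10 Kcnf, Kcng, Kcns and Kcnv genes encode electrically silent subunits that work only together with Kcnb subunits. Their median base mean was 38.4, from 4.16 (Kcnv1) to 133 (Kcns3), and their median per kb was 1.79. Of the 10, 0 lay above the median gene.

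The Kcnk and Kcnj subfamilies were the largest in number, and both held members with a base mean under 1. In Kcnk the median base mean was 17.9 and the range ran from 0.843 (Kcnk15) to 2244 (Kcnk5), with 9 of 13 members at 10 or more. On the per kb scale the subfamily median was 0.512, lower than that of the whole set, while 3 of its genes were among the 4 highest of all members. None of the Kcnj genes lay above the median gene on either scale. In Kcnj the median base mean was 24.0, the median per kb was 0.439, and 8 of 15 members had a base mean of at least 10. Its highest member in base mean was Kcnj4 at 204 and its lowest were Kcnj1, the renal outer medullary channel, and Kcnj15, both at 0.225.

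Among the channels gated by intracellular ions, the 4 Kcnn genes had a median base mean of 219.6 and a median of 6.58 per kb, the highest among subfamilies of at least 2 members (Kcnrg, the only gene of its kind, had 10.3), from 1.23 (Kcnn3) to 17.3 (Kcnn1). The Kcnm group consists of the pore-forming Kcnma1 at 1207 and 3 beta subunits of the same channel, of which Kcnmb4 had 86.7, Kcnmb2 32.6 and Kcnmb1, the smooth muscle form, 1.25. Per kb the gap was narrower, with 1.74 for Kcnma1, 1.55 for Kcnmb4, 0.117 for Kcnmb1 and 0.110 for Kcnmb2. Kcnt1 had a base mean of 253 beside the 2168 of Kcnt2, and per kb 4.84 beside 5.96. Kcnu1, the sperm-specific relative, had 57.1.

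The 12 auxiliary members had a median base mean of 21.2, and 0 of them lay above the median gene (exact 95% binomial interval 0% to 26.5%). Of the 75 pore-forming members, 10 (13.3%, interval 6.58% to 23.2%) did. The intervals overlap, and no test was made between these shares. Per kb the medians were 0.606 for the auxiliary and 1.72 for the pore-forming members. The single-span Kcne subunits were the lowest subfamily, with a median of 2.51, or 0.307 per kb, and a highest base mean of 12.2 (Kcne1, the partner of Kcnq1 in the heart). The cytoplasmic Kcnab subunits had 279 (Kcnab2), 106 (Kcnab3) and 30.2 (Kcnab1). Kcnrg, a soluble protein that interferes with the assembly of voltage-gated channels, had 55.2.

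For low members the base mean can be taken apart into whole reads. A read has a fixed worth in base mean in each library, from 0.113 in the deepest to 0.251 in the shallowest, which differ 2.23-fold in depth. Of 3565 entries with a base mean above 0 and under 10, 3563 (99.9%) equalled exactly 1 combination of whole reads over 6 libraries within 7e-10. The libraries are named A (deepest) to F (shallowest) here, and which of them is UNT or OHT is not known, so the counts below are given without a group, a mean or a test. Of all library counts above 0, 79.3% were even, as both reads of a pair usually fall in the same gene, and the limit for a gene with no reads, taken as 3 read pairs or 6 reads over all libraries, is a base mean of 0.959. Both the counts and this limit cover counting error only.

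All 20 members with a base mean under 10 were solved, with 2 to 52 reads in all. Kcnj1 and Kcnj15 each had 2 reads in library A and 0 in the other 5 libraries. Kcne2 and Kcne4 each had 2 reads in library E and 0 elsewhere, and Kcnk15, with a base mean of 0.843, had 4 reads in A and 2 in E. These 5 members, the only ones with a base mean under 1, are below the base mean of 0.959 that a count of 0 allows. They therefore cannot be separated from Kcna10, Kcnk9 and Kcnmb3, which are at 0. In reads Kcnk15 stands at the limit itself, with 6. Kcnk16 also had 6 reads, and its base mean of 1.09 lies just above the limit because its reads fell in other libraries.

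Higher up the scale the reads were spread over more libraries. Kcnj6, a subunit of G-protein-gated channels, had 16, 11, 4, 4, 12 and 5 reads in libraries A to F. Kcna5 had 24, 4, 1, 2, 4 and 10 reads, with 53.3% of them in library A. Kcns2 had 8, 14, 2, 2, 2 and 6 reads, and Kcnk7 1, 7, 1, 6, 6 and 2. These are the 4 members with reads in all 6 libraries. Other members were absent from some libraries at a similar base mean: Kcnk18, a channel known from sensory ganglia, had 15, 0, 6, 0, 16 and 4 reads, 31 of 41 of them in A and E, and Kcna4 had 8, 2, 0, 4, 2 and 14.

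**Figure D5:**
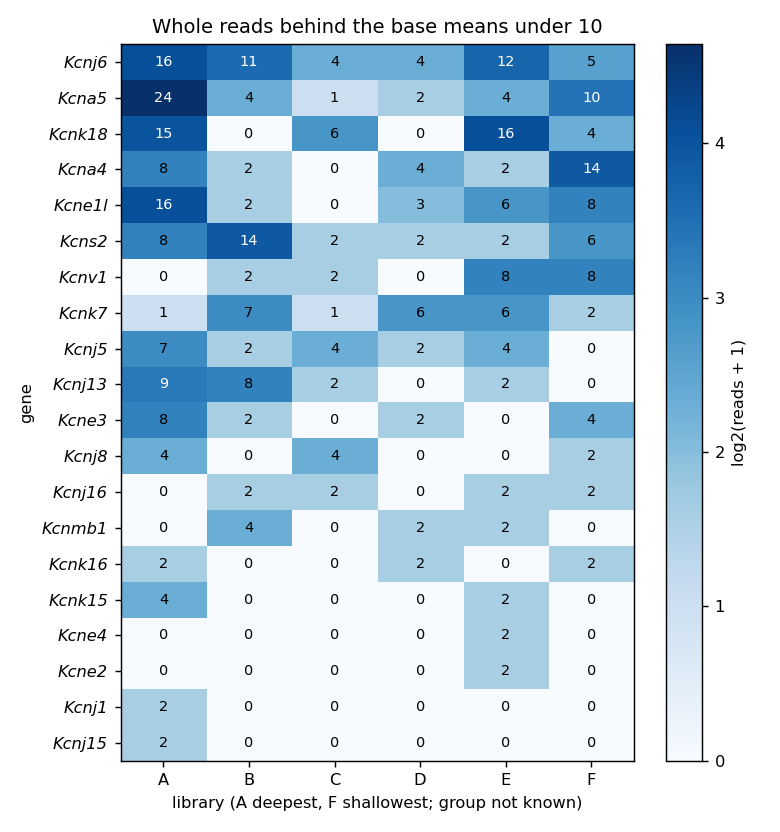
Whole reads in each of the 6 libraries for the 20 members with a base mean under 10, ordered by base mean; libraries are ordered by depth from A to F, their group is not known, and the shade is log2(reads + 1). Kcnj6, Kcna5, Kcns2 and Kcnk7 have reads in every library, and Kcnj1, Kcnj15, Kcne2 and Kcne4 in 1 library each.

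Genes that overlap or neighbour the members were examined next. An annotated gene overlaps 38 members, and for 13 of them the overlapping gene has a base mean above 0, on the opposite strand in every case. The libraries were made with a strand-specific kit, but whether the counting used strand is not stated in the sources used here. Kcnj13 lies wholly within Gigyf2, which has a base mean of 12638 on the opposite strand, and had 2.73, or 21 reads in all. Kcnmb1 likewise lies within Kcnip1 (96.6) and had 8 reads. Kcnq1 is overlapped over 93.1 kb by its antisense transcript Kcnq1ot1, an imprinted noncoding RNA with a base mean of 10032, which is 26.3 times the 382 of Kcnq1. For Kcnrg, which lies within Dleu2 (2626) on the opposite strand, and for Kcnq1, the part of reads from the other strand was not tested.

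Members that lie close to each other on a chromosome could differ widely in level. Of 8 pairs of neighbouring potassium channel genes within 100 kb, the widest contrast was between Kcnk5 and Kcnk16 on chromosome 14, which are 80.9 kb apart on the same strand. Kcnk5 had 2244 and Kcnk16, a channel of pancreatic islets, had 1.09 from 6 reads, a ratio of 2066 in base mean and of 319 per kb, the second value resting on those 6 reads. Kcne1 and Kcne2 differed from 12.2 to 0.392 across 47.9 kb, or from 0.905 to 0.0683 per kb. Kcnj5 and Kcnj1 differed from 2.86 to 0.225 across 28.1 kb, or from 0.0963 to 0.00844 per kb. Kcne2 and Kcnj1 had only 2 reads each and cannot be separated from 0, and Kcnj5 had 19 reads. The closest pair, Kcnj9 and Kcnj10, 11.9 kb apart, had base means of 37.7 and 154.6 but 4.27 and 4.70 per kb.

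Other ion channel families were placed on the same scale. The 10 sodium channel alpha subunits had a median base mean of 45.4 with 20% above the median gene, the 10 calcium channel alpha 1 subunits 118 with 20%, and the 25 Trp and mucolipin channels 96.6 with 20%. The 79 neurotransmitter receptor subunits had 20.7 with 11.4%. In contrast, the 9 Clcn genes, many of which encode exchangers of intracellular membranes, had a median of 1194 with 66.7% above the median gene. Per kb of span the medians were 0.548 for the sodium, 0.826 for the calcium and 0.862 for the Trp and mucolipin channels, 0.456 for the neurotransmitter receptors and 42.7 for the Clcn genes, beside 1.66 for the potassium channels. The low level was thus shared with the sodium, calcium and receptor genes, and no test was made between families.

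Genes that work with the channels were described from a list of 34, of which 32 were in the table. Of these 32, 10 lay above the median gene and 28 had a base mean of at least 10, where 50% and 84.9% of all genes do. Among the highest were the cation-chloride cotransporters Slc12a7 with 6801 and 128 per kb and Slc12a2 with 4248 and 62.3 per kb. The lowest was Lrrc52, a partner of the sperm channel Kcnu1, at 0.225, which is below the limit of 3 read pairs. The 4 Kcnip genes had a median of 106 and 0 lay above the median gene.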

How the data were processed

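Nuclear RNA was depleted of rRNA and sequenced as paired ends from 3 UNT and 3 OHT libraries. Per the study's methods and the labels, rRNA reads were removed with Bowtie2, the rest were aligned to mm10 (GRCm38) with STAR and then Bowtie2, and reads were counted on a filtered, non-redundant RefSeq set; versions are not given in the sources used here. The deposited table is the output of the authors' DESeq2 run. Its base mean is a signal, the authors' mean over all 6 libraries of counts divided by size factors. Its other columns hold the authors' own comparison of OHT with UNT (fold change, standard error, statistic, p-value, adjusted p-value and a threshold flag) and were not used. Hence no comparison between groups, no test and no spread between replicates is given.

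Entries were named with RefSeq (GRCm38.p6) and placed with GENCODE vM21. Levels per kb are base mean over the span of the entry. One read in each library has a fixed worth in base mean, which was found from repeated low values, and base means under 10 were solved for whole reads within 7e-10; this was tested on simulated data. Total depth is unknown, and relative depth follows from the size factors (0.664 to 1.48). Filter motifs were found in translated GENCODE coding sequences, in place of the RefSeq proteins planned. Python 3.11.15, numpy 2.4.6, pandas 2.3.3 and scipy 1.17.1 were used.

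The members and lists were chosen with earlier results of these data known. Genes named are the 20 highest per kb, the highest and lowest of each subfamily, every member above the median gene and those under a base mean of 1; other members, such as overlapping and neighbouring genes and those with whole reads, were chosen after their values were seen. Some genes that fall under this rule are not reported here. In all, 4 noncoding Kcn entries were left out. The alternatives were other choices of entry, background, members, minimum and length, and another motif.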

Additional observations from a re-analysis of the deposited data

How the results depend on the processing

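Of 30 alternative values, 25 kept close to the reported value and 0 reversed it; 4 of the 30, serine in the motif and leaving out 8 members overlapped by an entry of higher base mean, were chosen after seeing the data. The share of members above the median gene was 11.5% in base mean and 4.60% per kb of span. The share with a base mean of at least 10 was 77.0%, and with a minimum of 50 in its place it was 52.9%. The median level per kb was 1.66 with gene span and 16.4 with transcript length, which are values in different units. Among all genes on the same scale, the median member lay at percentile 23.2 with gene span and 24.3 with transcript length. Of the highest 20, 9 were shared between these scales. Among subfamilies of at least 2 members, the highest median was that of Kcnq (percentile 49.6) in base mean and that of Kcnn (percentile 35.8) per kb. The other choices left the share above the median gene between 10.99% and 14.9%.

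No paired analysis was possible because no value is tied to a numbered replicate. Leaving out replicates and fits of counts were not possible for the same reason. The promoter comparison was not run because 63 of 87 members (72.4%), under the 80% set, had a promoter window in the reference table. Depth limits the members under a base mean of 0.959, which cannot be separated from 0.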

Other observations

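The reads of the 20 low potassium channel genes were unevenly divided among the libraries after scaling for depth. With each library's reads divided by its size factor, library A held 22.7% of the sum over these genes, E 22.6% and F 26.9%, whereas B held 11.9%, C 7.59% and D 8.31%. Over all 3563 entries with a base mean under 10 that were solved, the shares were 19.4% in A, 19.6% in E, 17.6% in F, 14.9% in B, 13.9% in C and 14.7% in D, so that the same 3 libraries stood above an even split in both. Few reads stand behind the first set of shares, 382 in all. The group of each library is not known, and the difference was not tested.

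Of the noncoding Kcn entries, Kcnq1ot1 stood at a base mean of 10032, above every one of the 87 protein-coding members. The remaining 3 were low, with base means of 3.49 for Kcnmb4os2, 0.473 for Kcnd3os and 0.225 for Kcnmb4os1.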
